A study of Mus musculus with 180 samples.

Results

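The genes described here form the core of the circadian clock: the activators Arntl and Clock, the repressors Per1, Per2, Per3 and Cry1, the nuclear receptors Nr1d1 and Nr1d2, and the output factors Dbp and Tef. They were taken by name, with earlier results of these data known, and 9 of the 10 were analysed among 13820 genes of the table. Dbp was not analysed here. RNA of 15 tissues from 12 mice was counted by 3′ tag sequencing, in which each read marks the end of a polyadenylated transcript, so there were 180 libraries. Mice 1 to 8 were of the strain C57BL/6J, of which mice 1 to 4 received PBS and mice 5 to 8 received LPS, a component of the bacterial cell wall, at 5 mg/kg. Mice 9 to 12 were of the strain B6.129S-Tnftm1Gkl/J, which lacks the cytokine TNF, and received LPS at that dose too. All 12 mice were female and 6 weeks old, each tissue is labelled with a time of 12 hours, and every mouse was perfused with PBS and EDTA under anaesthesia. No group was TNF-deficient and given PBS, so what the allele or its strain background does without LPS, and what it does to the response, cannot be told apart. The sources used here do not give the hour of day, and with 1 time point a change of level and a shift of phase cannot be told apart.

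In the clock, the proteins of Arntl and Clock pair and bind E-boxes in the promoters of Per, Cry, Nr1d1, Nr1d2, Dbp and Tef, and the Per and Cry proteins then block that pair. Nr1d1 and Nr1d2, also known as Rev-erb alpha and Rev-erb beta, repress Arntl through RORE sites, while Tef and Dbp bind D-boxes, among them those of the Per genes. Per1 is in addition a known target of glucocorticoid hormone, and nearly every tissue of the body runs such a clock of its own.

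Promoter stretches that hold these elements are shown because each feedback arm reads 1 of them. Windows from 250 bases before to 50 bases after an annotated start were read from RefSeq (GRCm38.p6, the build of mm10) for 8 of the 9 genes, and both strands were searched for the E-box CACGTG, its variant CACGTT, the D-boxes TTATGTAA and TTACGTAA, the cAMP response element TGACGTCA and the RORE, the receptor element of Nr1d1 and Rora. Capitals mark the match, all lines read 5′ to 3′ on the gene's own strand, and positions are counted from the annotated start.

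The Per3 stretch (chr4:151044666-151044915, minus strand, the 250 bases before the start, within Camta1 but in none of its exons) held the D-box TTATGTAA at positions -205 and -158, a motif found in 0.938% of 32851 mouse promoter windows of that length.
Per3: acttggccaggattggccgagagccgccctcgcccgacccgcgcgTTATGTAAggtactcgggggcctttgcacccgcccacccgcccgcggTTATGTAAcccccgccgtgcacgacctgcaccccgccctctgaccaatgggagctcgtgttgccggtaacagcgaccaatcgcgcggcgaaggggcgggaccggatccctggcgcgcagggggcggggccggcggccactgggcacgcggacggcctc

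The Nr1d1 stretch (chr11:98775378-98775627, minus strand, outside annotated genes) held the E-box variant at position -28, where this strand reads its reverse complement. The variant was found in 4.68% of windows.
Nr1d1: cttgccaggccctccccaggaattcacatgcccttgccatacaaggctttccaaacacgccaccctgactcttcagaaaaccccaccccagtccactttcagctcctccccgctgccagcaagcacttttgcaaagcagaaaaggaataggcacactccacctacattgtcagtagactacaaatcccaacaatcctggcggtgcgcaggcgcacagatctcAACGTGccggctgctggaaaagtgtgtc

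The E-box CACGTG, found in 7.15% of windows, lay at position -166 of a Per1 start (chr11:69098771-69098800, plus strand, in a Per1 intron), at position -60 of Cry1 (chr10:85185097-85185126, minus strand, outside annotated genes) and at position -127 of Tef (chr15:81802534-81802563, plus strand, in an exon of Tef). A further Tef window held an E-box at position -138, and Cry1 held the variant at position -79. A RORE, found in 0.7% of windows, lay at position 28 of Arntl (chr7:113207528-113207557, plus strand, in an exon of Arntl).
Per1: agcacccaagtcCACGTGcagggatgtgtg
Cry1: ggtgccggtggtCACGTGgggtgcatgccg
Tef: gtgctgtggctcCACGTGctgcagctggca
Arntl: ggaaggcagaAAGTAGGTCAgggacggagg

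No searched motif was found in the windows of Clock or Nr1d2. Each match describes letters in a window and not a bound site.

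Libraries held 311128 to 2573806 counts. The fewest were in the brown adipose tissue of PBS mouse 1, where 1 count stood for a signal of 3.604. Values are given as the signal the authors deposited, a count scaled by a factor of its library, in which 1 count stood for 0.322 to 3.604. Signals summed to 703690 to 1603067 per library, so they are not shares of a fixed total. Low signals rest on few counts, among them those of Per3, Per2, Cry1, Arntl, Nr1d1 and Nr1d2. All 5 markers fixed for a tissue passed a check of identity for 12 of the 15 tissues. In white adipose tissue, colon and thymus 3 to 4 of 5 passed. A marker passed where its mean in PBS mice was highest in its tissue. Spleen and inguinal lymph node shared 1 list, whose markers passed where the tissue was highest or next highest. Differences were tested within each tissue with limma on log2(signal + 1), adjusted by Benjamini-Hochberg over all genes of the tissue. A difference with an adjusted p below 0.05 is a call, and a gene is said to have risen or fallen only where it was called. In whole tissue, fewer cells of a type and less RNA per cell cannot be told apart. Mice are named below by their number, 1 to 12.

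In the PBS mice each gene was measured in all 15 tissues, and most tissues that stood next to each other in the order of a gene's levels overlapped. Nr1d1 had the widest range of group means of the 9 genes, 21.7-fold, from a signal of 111 ± 30.6 in brown adipose tissue to 5.11 ± 0.833 in bone marrow (mean ± SD, n = 4). Bone marrow stood apart from the next tissue in that order, the inguinal lymph node at 11.2 ± 2.51. Cry1 was highest in thymus, at 26.8 ± 6.29, apart from muscle at 14.6 ± 2.7, and lowest in kidney, at 3.3 ± 2.09. Tef was highest in muscle, at 153 ± 11.8, apart from brain at 123 ± 4.16, and lowest in bone marrow, at 19.9 ± 5.04. Arntl had the narrowest range, 2.31-fold, from 25.3 ± 3.25 in small intestine to 10.9 ± 2.62 in white adipose tissue, and all its neighbours in the order overlapped. Clock ran from 59.5 ± 2.47 in brain to 16.1 ± 4.15 in thymus, Per1 from 83.4 ± 17.9 in lung to 30.1 ± 4.53 in small intestine, and Nr1d2 from 51.4 ± 14 in muscle to 7.1 ± 3.5 in bone marrow. Per2 and Per3 were lowest in thymus, at 4.83 ± 0.543 and 3.6 ± 2.49, and highest in lung and colon, at 20.8 ± 4.44 and 18.4 ± 5.5.

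LPS moved the clock genes unevenly. Per1 rose in 13 of 15 tissues, Nr1d1 fell in 9, and Per3 fell in 6 and rose in brain. Arntl, Clock, Per2, Cry1, Nr1d2 and Tef were called in 0 to 3 tissues each, among them a rise of Arntl in muscle and a fall of Tef in kidney, each over 2 units of log2. Over 135 tests of a gene in a tissue, 18 were lower and 20 higher after LPS. For all 200124 gene and tissue tests the shares were 10.4% lower and 9.47% higher. The median change was -0.14 over the clock gene tests and -0.019 over all tests. The 4 LPS values did not overlap the 4 PBS values in 39 of the 135 tests, and in 20.9% of all tests.

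Kidney had the most clock genes called, 6 of 9, in a tissue where 38.0% of all genes were called. In lung 5 of 9 were called against 25.6% of all genes, and in brain 3 of 9 against 4.35%. In heart and skin 3 of 9 were called, against 22.2% and 17.9%. These 5 tissues held more called clock genes than any of the other 10. In liver, colon and muscle 2 of 9 were called against 25.2%, 17.2% and 12.5%, and in white and brown adipose tissue 2 of 9 against 13.7% and 18.4%. In bone marrow, inguinal lymph node and small intestine 2 of 9 were called against 23.0%, 22.5% and 23.3%. Per1 alone was called in spleen and thymus, where 15.8% and 18.5% of all genes were.

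**Figure D1:**
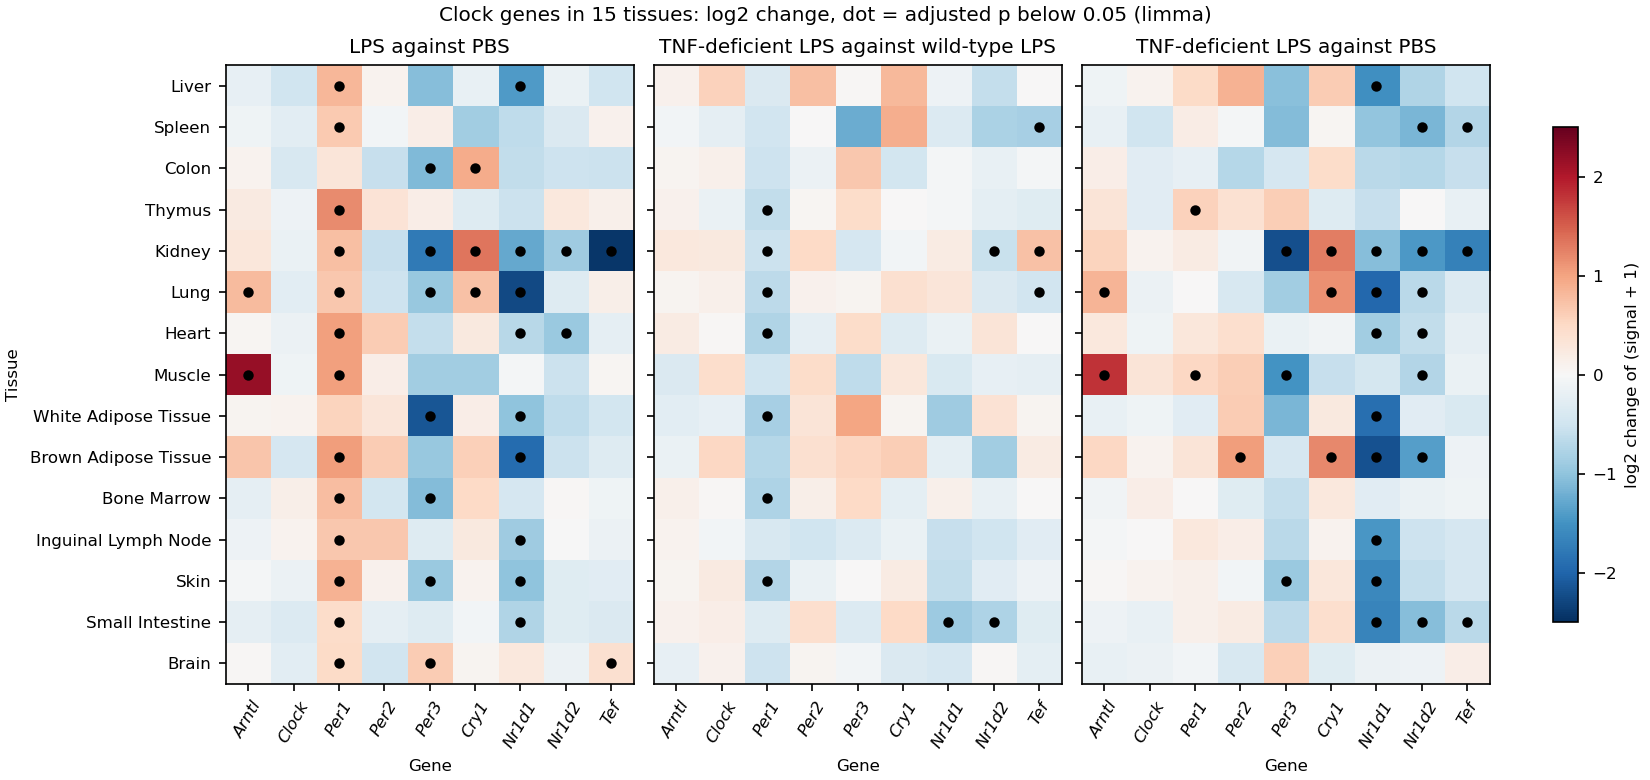
Log2 change of (signal + 1) for 9 clock genes (columns) in 15 tissues (rows), for each comparison of 2 groups of 4 mice; a dot marks an adjusted p below 0.05 by limma. Per1 rose after LPS in 13 tissues and Nr1d1 fell in 9, while the darkest squares are Tef in kidney (-2.43) and Arntl in muscle (2.17).

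Of the activators, Arntl, which encodes the protein also called Bmal1, rose after LPS in muscle and lung. In muscle the PBS mice had signals of 7.67, 9.02, 5.21 and 26.6, and the LPS mice 53.5, 54.6, 53.2 and 36.3. Every LPS muscle was above every PBS muscle, and the highest PBS value, of mouse 4, and the lowest LPS value, of mouse 8, each stood apart from the other 3 of their group. The change was 2.17 (SE 0.3, adjusted p = 1.43e-06), and 2.61 without mouse 4 (adjusted p = 2.01e-09). These muscle values rest on 3 to 18 counts in PBS mice and 27 to 43 in LPS mice. In lung the values were 10.9, 10.1, 16.1 and 15.7 in PBS mice and 20.3, 19, 31.7 and 22.8 in LPS mice, again without overlap, a change of 0.79 (adjusted p = 0.0064). In the other 13 tissues Arntl was not called, with 0.69 in brown adipose tissue (adjusted p = 0.152), which became a call of 0.98 without mouse 4 (adjusted p = 0.0318). The sum of 5 skeletal muscle markers was 117537 to 136670 in the muscle of PBS mice and 98911 to 115846 in that of LPS mice. Its part in the Arntl result was not tested.

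Clock, the partner of Arntl, was called in 0 of 15 tissues by limma, and edgeR and DESeq2 on the counts also called 0. At an unadjusted p below 0.05 limma gave 4 tissues, and the change was below 0 in 12 of 15, with a median of -0.17. In liver the LPS mice had signals of 24.5, 31.8, 23.8 and 25.1 against 28, 45.1, 40.9 and 37 in PBS mice, a change of -0.49 (SE 0.21, adjusted p = 0.0964). The groups overlapped there.

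Per1, an early-response repressor, had the most calls of the 9 genes. In thymus its signals were 37.8, 44.5, 42.6 and 41 in PBS mice and 92.6, 86.2, 119 and 89.8 in LPS mice. Each LPS thymus was above each PBS thymus, a change of 1.19 (SE 0.15, adjusted p = 2.36e-08), the largest of Per1. In muscle the values were 86.9, 59.7, 52.1 and 68.1 against 114, 128, 140 and 157, a change of 1.02 (adjusted p = 9.12e-06). Heart rose from 40.4, 42.3, 64.3 and 62.2 to 94.3, 84.3, 140 and 113, a change of 1.03 (SE 0.16, adjusted p = 1.22e-05). These groups did not overlap either. The change was 1.04 in brown adipose tissue, 0.86 in skin, 0.83 in liver, 0.78 in bone marrow, 0.75 in kidney, 0.68 in inguinal lymph node, 0.67 in lung and 0.66 in spleen. The smallest calls were brain, from 57.2 ± 6.93 to 79.2 ± 4.22 (0.47, adjusted p = 0.0396), and small intestine (0.46, adjusted p = 0.0311). Colon at 0.31 (adjusted p = 0.346) and white adipose tissue at 0.56 (adjusted p = 0.0774) were not called, so the change was above 0 in 15 of 15 tissues, with a median of 0.75, and the groups were apart in 12. A difference of the Per1 change among tissues was not called (adjusted p = 0.0854 by limma's moderated F, and 0.014 with the mouse as a replicate block).

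Some Per1 calls were lost when 1 mouse was left out or a setting was changed. The spleen call was lost without mouse 1 (adjusted p = 0.0581), the small intestine call without mouse 2, 4, 6 or 7 (0.0656 to 0.0961), with only the 2 groups in the fit (0.0518) and by DESeq2 (0.0557), and the brain call without any of mice 1, 2, 3, 5, 6, 7 or 8 (0.061 to 0.164) and with no filter (0.0571). LPS mouse 7 had the highest Per1 of the 4 LPS mice in 13 of 15 tissues, and mouse 6 the lowest in 9. Genes known to be induced by glucocorticoids, a fixed list of 8 (Tsc22d3, Fkbp5, Sgk1, Zbtb16, Klf9, Dusp1, Errfi1 and Cdkn1a), were higher after LPS in 82 of 120 tests and lower in 2, with a median of 0.81, where 9.47% of all tests were higher and 10.4% lower. The 2 lower tests were Tsc22d3 and Dusp1 in liver. The relation of the list to Per1 was not tested.

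**Figure D2:**
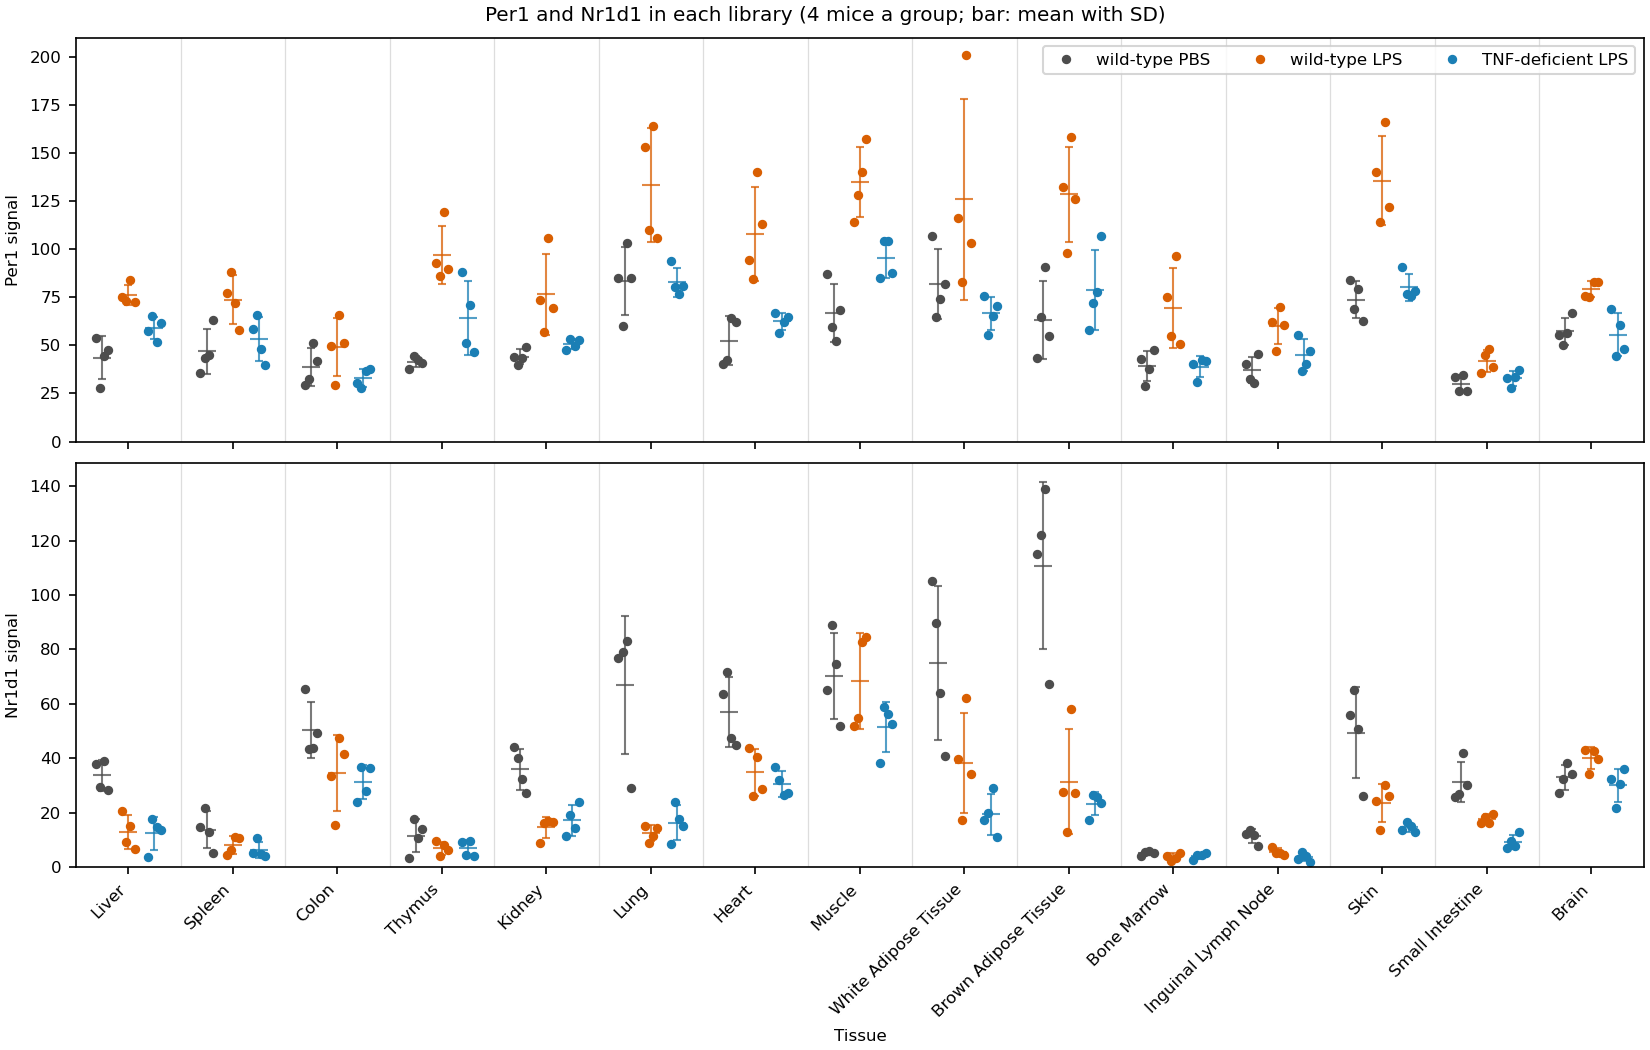
Signal of Per1 (upper panel) and Nr1d1 (lower panel) in every library of 15 tissues, with a point for each mouse and a line and bar for the mean and SD of the 4 mice of a group. In thymus the Per1 values of the LPS mice (86.2 to 119) lie above those of the PBS mice (37.8 to 44.5), and in lung the Nr1d1 values of the LPS mice (8.79 to 15) lie below those of the PBS mice (29.1 to 82.9).

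Per2, the close relative of Per1, was called in 0 of 15 tissues by limma, edgeR and DESeq2 alike, with 5 tissues at an unadjusted p below 0.05. Its changes went both ways, from -0.58 in kidney (adjusted p = 0.0631) to 0.67, with 0.63 in brown adipose tissue (adjusted p = 0.0964). The lung, at -0.51 (adjusted p = 0.114), became a call of -0.66 without mouse 4 (adjusted p = 0.0431). So Per1 and Per2, which share a repressor role, differed in their number of calls, 13 and 0. The 2 genes were not tested against each other.

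Per3, the third Per gene, fell in 6 tissues. In white adipose tissue its signals were 13.1, 15.5, 16 and 12.8 in PBS mice and 2.77, 6.47, 0 and 4.27 in LPS mice, a change of -2.13 (SE 0.5, adjusted p = 0.00428), without overlap. In kidney they were 16.8, 11.5, 12.7 and 14.2 against 4, 1.28, 1.47 and 11.1, a change of -1.77 (adjusted p = 0.00108), and all 4 LPS values were below the lowest PBS value. The counts behind these values were low, 20 to 24 per PBS kidney and 2 to 12 per LPS kidney. Colon (-1.11, adjusted p = 0.0118), bone marrow (-1.08, adjusted p = 0.00728), lung (-0.94, adjusted p = 0.0437) and skin (-0.93, adjusted p = 0.019) fell too. The brain went the other way, from 20.4, 13.5, 14.8 and 16.8 to 29.7, 27.2, 24.8 and 22.3, a rise of 0.64 (SE 0.18, adjusted p = 0.0404) with no overlap. The lung call was lost without mouse 2, 3, 5, 7 or 12 (0.0518 to 0.191) and in 4 of 6 other settings (0.0518 to 0.0841), the skin call without mouse 2, 3 or 7 (0.0639 to 0.0795), and the brain call without any of mice 2 to 8 (0.0517 to 0.162) and with no filter (0.0602). Per3 lies within Camta1, on the same strand but with 0 shared exonic bases. Camta1 rose in kidney (0.58), lung (0.49), heart (0.44) and skin (0.53), opposite to Per3 in kidney, lung and skin.

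Cry1, the cryptochrome that joins the Per proteins in repression, rose in kidney, lung and colon. In kidney the signals were 2.79, 5.48, 0.635 and 4.27 in PBS mice, from 1 to 10 counts, and 7.34, 6.41, 10.3 and 11.1 in LPS mice. The groups were apart and the change was 1.33 (adjusted p = 0.00272). In lung Cry1 went from 5.85, 9.47, 7.71 and 12.1 to 16.3, 14.6, 15.2 and 13.5, a change of 0.74 (adjusted p = 0.0187), also without overlap, and this call was lost without mouse 1 (0.0787). The colon change of 0.92 (adjusted p = 0.0428) was lost without any 1 of mice 1, 2, 3, 5, 6, 7, 9 and 10 (0.052 to 0.155), with no filter (0.0765), with 2 groups in the fit (0.0624) and by DESeq2 (0.105).

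**Figure D3:**
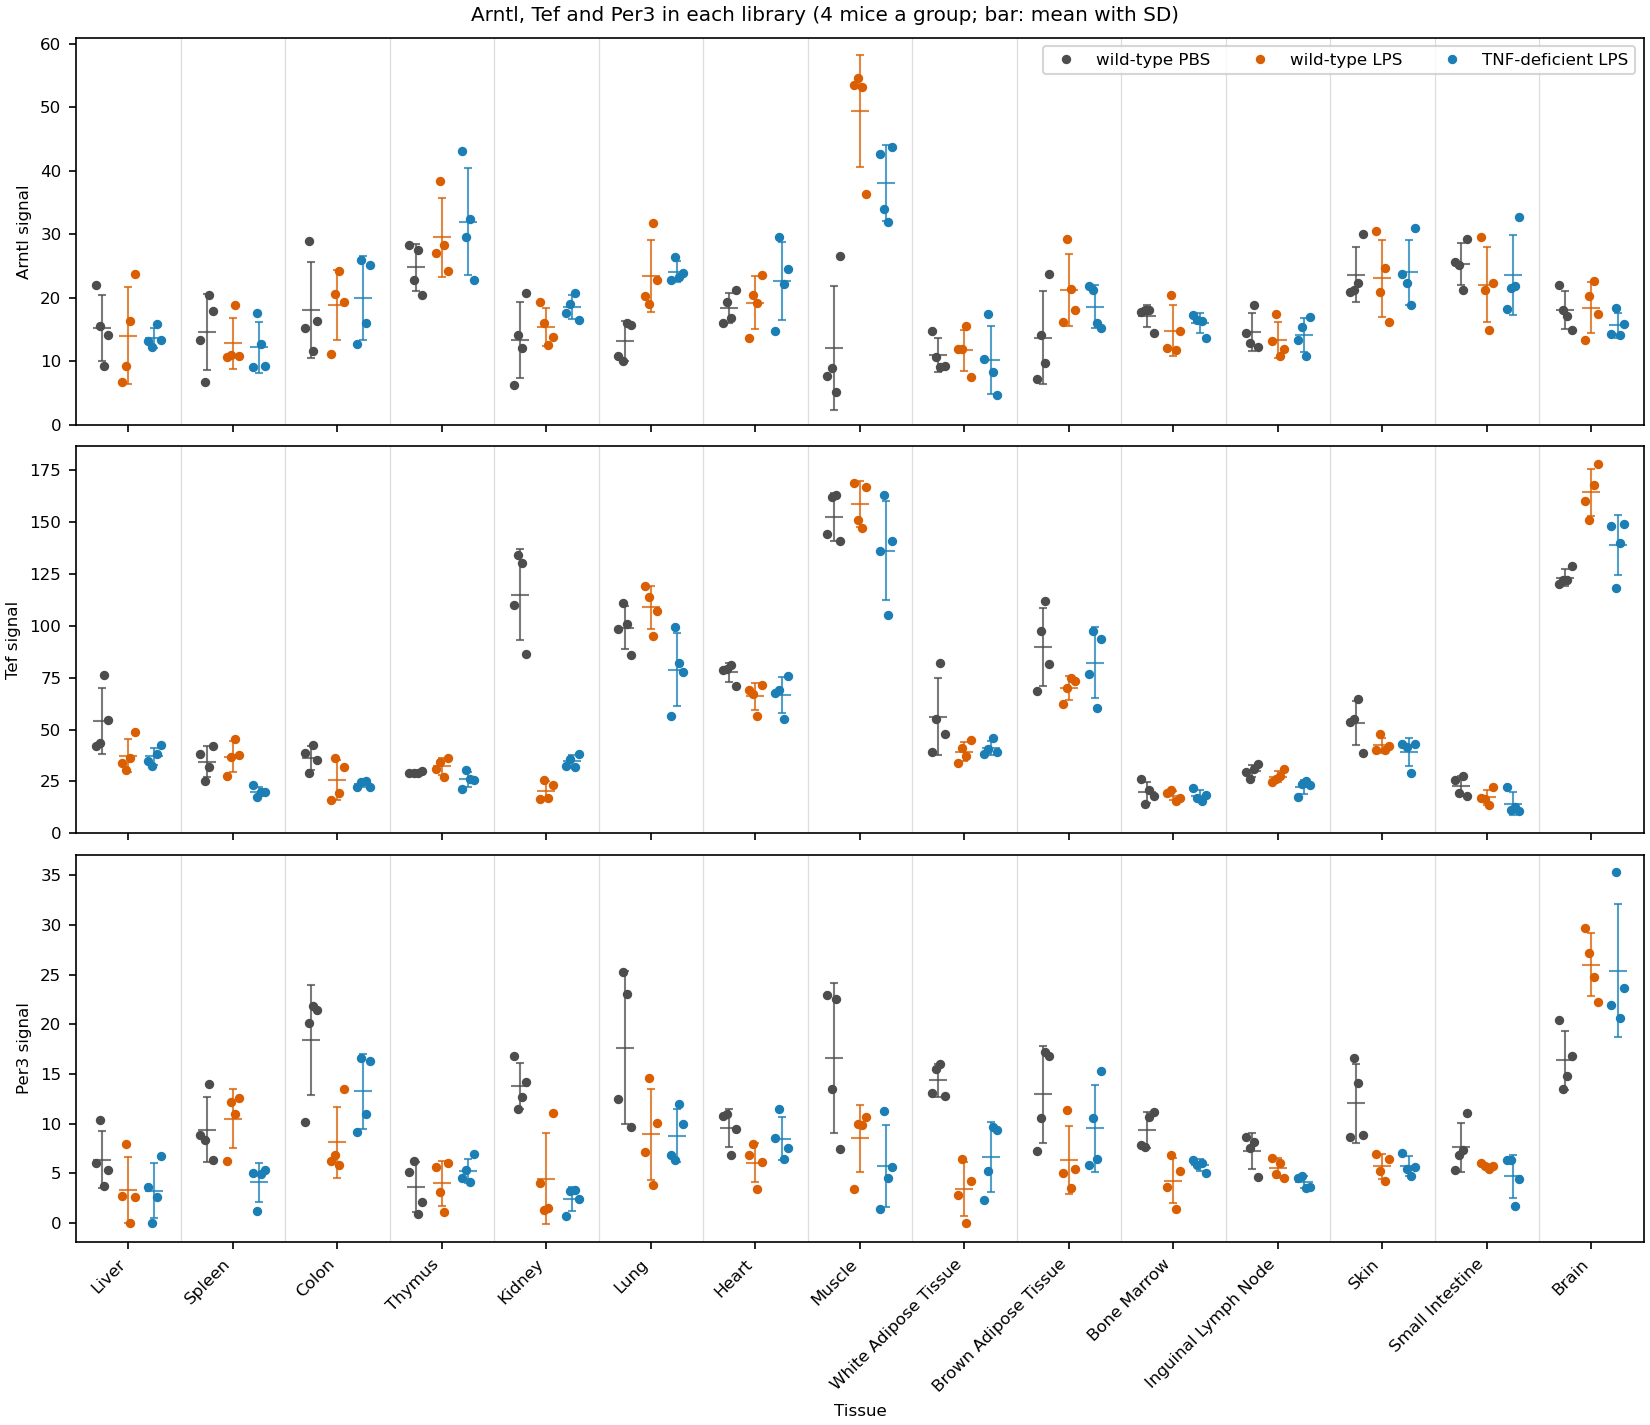
Signal of Arntl, Tef and Per3 (panels from top to bottom) in every library of 15 tissues, with a point for each mouse and a line and bar for the mean and SD of the 4 mice of a group. Arntl after LPS stands high in muscle (36.3 to 54.6 against 5.21 to 26.6 in PBS mice), Tef falls in kidney (16.7 to 25.6 against 86.2 to 134), and Per3 rises in brain (22.3 to 29.7 against 13.5 to 20.4).

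Nr1d1, the repressor of Arntl, fell in 9 tissues. In lung its signals were 76.8, 78.9, 82.9 and 29.1 in PBS mice and 15, 8.79, 11.4 and 14.4 in LPS mice. Mouse 4 stood far below the other PBS mice, yet the groups did not overlap, and the change was -2.26 (SE 0.29, adjusted p = 7.99e-07), or -2.61 without mouse 4 (adjusted p = 3.26e-08). In brown adipose tissue the values were 115, 122, 139 and 67.3 against 27.4, 12.7, 58.2 and 27.2, a change of -1.93 (SE 0.31, adjusted p = 0.000102). Liver went from 38, 29.5, 39 and 28.2 to 20.4, 9.29, 15 and 6.59, a change of -1.42 (adjusted p = 0.00453), and kidney from 44, 40, 32.4 and 27.1 to 8.67, 16, 16.9 and 16.6, a change of -1.27 (adjusted p = 8.27e-05). None of these groups overlapped. Skin (-1.01), white adipose tissue (-1, adjusted p = 0.0406), inguinal lymph node (-0.88, adjusted p = 0.0199), small intestine (-0.76) and heart (-0.7) were the other calls.

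Nr1d1 changes in the remaining tissues ran from -0.63 in spleen (adjusted p = 0.358) to 0.27 in brain (adjusted p = 0.41), with -0.04 in muscle (adjusted p = 0.927). In muscle the LPS mice, at 51.7, 54.6, 82.8 and 84.6, overlapped the PBS mice, at 65.2, 89, 74.7 and 51.8. The white adipose call was lost without mouse 1, 2, 3, 5, 6 or 8 (0.0619 to 0.153), with a pseudocount of 0.25 (0.0516) and with no filter (0.0814), and the lymph node call without mouse 2, 3 or 8 (0.0509 to 0.0615). The colon, at -0.62 (adjusted p = 0.0713), became a call of -0.81 without mouse 7 (adjusted p = 0.0229). PBS mouse 4 had the lowest Nr1d1 of the PBS mice in 10 of 15 tissues.

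Nr1d1 shares 263 exonic bases with Thra, the thyroid hormone receptor alpha gene on the opposite strand, and whether the counting used the strand is not known. Thra fell after LPS in colon (-0.75), kidney (-0.88), lung (-1.06), heart (-0.78), brown adipose tissue (-1.04) and small intestine (-0.52), so in 5 of the 9 tissues in which Nr1d1 fell. In liver Thra changed by -0.08 (adjusted p = 0.881). If the counting did not use the strand, reads of the 2 genes cannot be told apart where they overlap.

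Sums of cell markers lay apart between PBS and LPS mice in lung and kidney, except the neutrophil sum in kidney, which overlapped. In lung, the summed signal of 8 neutrophil markers was 460 to 495 in PBS mice and 4606 to 5041 in LPS mice, and that of 5 lung markers was 85402 to 92383 and 52463 to 65943. In kidney, 5 kidney markers summed to 9588 to 11064 in PBS mice and 4632 to 6888 in LPS mice, and neutrophil markers to 310 to 413 and 405 to 523. No listed marker of these sets was at 0 in either tissue. Their part in the changes of Nr1d1, Arntl, Cry1 and Per3 in lung, and of Tef, Nr1d1, Nr1d2, Per3 and Cry1 in kidney, was not tested.

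Nr1d2, the relative of Nr1d1 that represses the same sites, fell in kidney and heart. In kidney the signals were 37.7, 38.4, 39.4 and 31.3 in PBS mice and 16.7, 23.1, 22 and 16.6 in LPS mice, a change of -0.88 (adjusted p = 0.000561). In heart they were 45.7, 55.1, 55.1 and 37.8 against 33.1, 18.2, 24.8 and 24.4, a change of -0.93 (adjusted p = 0.00118). In both tissues each LPS mouse was below each PBS mouse. Elsewhere Nr1d2 was not called, and the change was below 0 in 13 of 15 tissues, with a median of -0.32. In muscle it became a call of -0.71 without mouse 4 (adjusted p = 0.0296).

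Tef, an output factor of the clock that binds D-boxes, fell in kidney by the largest amount among all 135 tests. Its kidney signals were 110, 134, 130 and 86.2 in PBS mice and 16.7, 25.6, 16.9 and 23.1 in LPS mice. The lowest PBS kidney was more than 3 times the highest LPS kidney, and the change was -2.43 (SE 0.16, adjusted p = 4.71e-12). In brain Tef rose, from 120, 122, 122 and 129 to 160, 151, 168 and 178, a change of 0.41 (adjusted p = 0.014) without overlap, a call lost without mouse 1, 2, 3, 7 or 8 (0.0512 to 0.0688). No other tissue was called for Tef, with -0.5 in liver (adjusted p = 0.0792) and 0.05 in muscle (adjusted p = 0.865), where its PBS signal was highest on the deposited scale. Hlf, the third factor of the family of Tef and Dbp, fell in kidney by 3.12 on the log2 scale (adjusted p = 1.74e-12). Unlike Tef, Hlf also fell in inguinal lymph node (-1.2, adjusted p = 0.00251) and brown adipose tissue (-0.93, adjusted p = 0.047). It was not called after LPS in the other tissues.

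Averaging each mouse over its 15 tissues makes the mouse the unit of the test. Per1 then stood at 5.687, 5.478, 5.764 and 5.781 on the log2 scale in PBS mice and at 6.428, 6.21, 6.739 and 6.35 in LPS mice, a change of 0.75 (SE 0.08, adjusted p = 2.19e-07). Nr1d1 stood at 5.086, 5.291, 5.163 and 4.673 against 4.242, 3.736, 4.469 and 4.242, a change of -0.88 (SE 0.14, adjusted p = 1.85e-05). Neither gene had overlapping groups. Per3 (-0.74, adjusted p = 0.000326), Nr1d2 (-0.36, adjusted p = 0.0028), Tef (-0.3, adjusted p = 0.000591) and Clock (-0.19, adjusted p = 0.00786) were lower, and Arntl was higher (0.23, adjusted p = 0.024). Cry1 (0.17, adjusted p = 0.108) and Per2 (0.01, adjusted p = 0.968) were not called. So 5 of 9 were lower and 2 higher, where 27.7% and 21.9% of 13501 genes were. The Arntl call was lost without mouse 1, 2, 3, 6 or 7 (0.0541 to 0.0779). A mean over tissues can be carried by few of them. Among the 15 tissues the median Arntl change was 0.04, with 6 below 0 and 2.17 in muscle. For Tef the median was -0.23, with -2.43 in kidney.

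**Figure D4:**
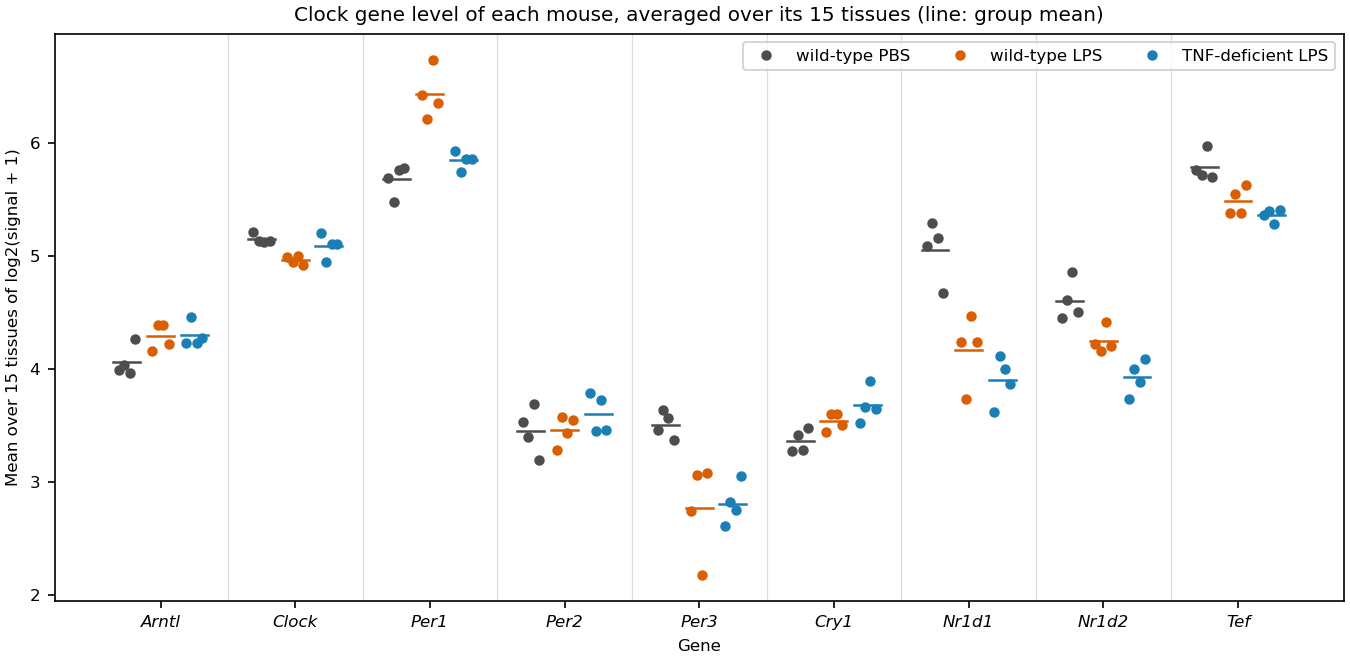
Mean over 15 tissues of log2(signal + 1) for each of 12 mice (points) and 9 clock genes, with a line for the mean of the 4 mice of a group. For Per1 the 4 LPS mice (6.21 to 6.739) lie above the other 8 mice (5.478 to 5.931), and for Nr1d1 both LPS groups (3.619 to 4.469) lie below the PBS mice (4.673 to 5.291).

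Whether a change differed among tissues was tested by the moderated F of limma, over 14 differences between tissues, in 1 fit of all 45 groups. For LPS against PBS it was called for 6 of 9 clock genes, where 65.5% of all genes were called: Tef (adjusted p = 5.75e-20), Arntl (7.11e-07), Nr1d1 (2.71e-05), Cry1 (0.000269), Per3 (0.00128) and Per2 (0.0296). Nr1d2 (0.0841), Per1 (0.0854) and Clock (0.524) were not called, and with the mouse as a replicate block Nr1d2 (0.0466) and Per1 (0.014) were. Each tissue was then set against the mean of the other 14, where the change was lower in 6 of the 135 clock gene tests and higher in 5, against 5.57% and 5.46% of all tests. Kidney differed for Tef (-2.28, adjusted p = 2.66e-23) and Cry1 (1.24, adjusted p = 0.00437), and muscle for Arntl (2.08, SE 0.29, adjusted p = 3.62e-09) and Cry1 (-1.11, adjusted p = 0.0205). Brain differed for Nr1d1 (1.24, adjusted p = 0.0135), Per3 (1.48, adjusted p = 0.026) and Tef (0.76, adjusted p = 0.00233), each above the other tissues. Nr1d1 fell further in lung (-1.48, adjusted p = 0.000695) and brown adipose tissue (-1.12, adjusted p = 0.0112), Per3 in white adipose tissue (-1.49, adjusted p = 0.0189), and Cry1 in spleen differed by -1.11 (adjusted p = 0.0159). With the mouse as a replicate block there were 14 calls, adding Nr1d1 in muscle (0.9), Per1 in thymus (0.47) and Per3 in kidney (-1.1), and without mouse 2 there were 7. On simulated data the F test and the test of a tissue against the others made more false calls than their threshold implies.

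The comparison of genotypes asks how the clock genes stood in mice without TNF, both groups having received LPS. Per1 was lower in TNF-deficient mice in 7 tissues, and few other calls were made. Over 135 tests 12 were lower and 1 was higher, where 2.32% of all tests were lower and 3.24% higher, and the median was -0.07 against 0.016 over all tests. The groups did not overlap in 20 tests, and in 10.6% of all tests. Without mouse 7 the lower calls were 6.

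Per1 was below 0 in this comparison in 15 of 15 tissues, from -0.83 to -0.33, with a median of -0.54. In heart the TNF-deficient mice had 66.8, 56.4, 62.2 and 64.7, all below the LPS mice at 94.3, 84.3, 140 and 113, a change of -0.75 (adjusted p = 0.00339). In skin they had 90.6, 76.5, 75.6 and 78.2 against 140, 114, 166 and 122, a change of -0.74 (adjusted p = 0.00483), and in bone marrow 40.3, 30.7, 42.6 and 42 against 75.2, 55, 96.3 and 50.9, a change of -0.78 (adjusted p = 0.00664). The groups were apart in all 3 of these tissues. White adipose tissue (-0.83, adjusted p = 0.0262), lung (-0.66, adjusted p = 0.00996), thymus (-0.62, adjusted p = 0.00933) and kidney (-0.54, adjusted p = 0.00925) were lower too, and edgeR called 11 tissues and DESeq2 8. Without mouse 7, which had the highest Per1 of the LPS mice in most tissues, the calls in thymus (0.0767), kidney (0.0569), lung (0.05) and white adipose tissue (0.137) were lost, while heart (0.0216), skin (0.0252) and bone marrow (0.0389) passed. The thymus call was also lost without mouse 10 or 12 (0.0595 to 0.0798) and with no filter (0.0596), and the white adipose call without mouse 5, 10 or 11 (0.0614 to 0.0709) and with no filter (0.0633). The glucocorticoid-induced list was lower in 46 of 120 tests and higher in 1, with a median of -0.47. For all tests the shares were 2.32% lower and 3.24% higher. In TNF-deficient against PBS mice the list was higher in 49 of 120 tests and lower in 8, with a median of 0.35. There the shares of all tests were 6.71% higher and 6.13% lower. The relation of the list to Per1 was not tested.

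Nr1d1 was lower in TNF-deficient mice in small intestine, at 6.88, 9.45, 7.71 and 12.9 against 16.3, 18.4, 16.3 and 19.6 in LPS mice, a change of -0.9 (adjusted p = 0.00924) without overlap. Nr1d2 was lower in the same tissue, at 8.6, 7.65, 9.42 and 8.91 against 16.3, 12.7, 15 and 18.4 (-0.77, adjusted p = 0.0151), and in kidney (-0.55, adjusted p = 0.0431). For both nuclear receptors, 4 of 4 values in the small intestine of TNF-deficient mice lay under all 4 of the LPS mice. The small intestine call of Nr1d2 was lost without mouse 8 or 10 (0.0505 to 0.0621), and the kidney call without 8 of the 12 mice in turn (mice 1, 2, 3, 6, 7, 9, 11 and 12, 0.0535 to 0.164), with no filter (0.0549), with 2 groups in the fit (0.0918) and by DESeq2 (0.0619).

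Tef in kidney was the call of the 135 in which TNF-deficient mice were higher. They had 32.3, 35.6, 32.2 and 38.4, above all LPS mice at 16.7 to 25.6 and below all PBS mice at 86.2 to 134, a change of 0.74 (adjusted p = 0.00136). Tef was lower in spleen, at 23.3, 17.6, 19.7 and 20 against 27.5, 36.7, 45.5 and 37.9 (-0.83, adjusted p = 0.0218), and in lung (-0.48, adjusted p = 0.0439). The spleen call was lost without mouse 7, 8, 10, 11 or 12 (0.0509 to 0.0958), and the lung call without mouse 1, 2, 3, 5, 8, 9, 11 or 12 (0.054 to 0.182), with no filter (0.074) and with 2 groups in the fit (0.0887). Arntl, Clock, Per2, Per3 and Cry1 had 0 calls by limma, edgeR and DESeq2, with 0, 3, 0, 2 and 1 tissues at an unadjusted p below 0.05.

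Over mouse means, Per1 was lower in TNF-deficient mice, at 5.931, 5.747, 5.856 and 5.858 (-0.58, SE 0.08, adjusted p = 7.02e-05), and so was Nr1d2 (-0.32, adjusted p = 0.0159). These 2 of 9 compare with 8.52% of all genes lower and 12.4% higher, and 0 of 9 were higher by limma. Clock, at 0.13 (unadjusted p = 0.0324, adjusted p = 0.109), was the 1 gene above 0 with an unadjusted p below 0.05, and it became a call of 0.18 without mouse 10 (adjusted p = 0.0351). edgeR and DESeq2 were not run on mouse means. Without mouse 7 the Per1 value was -0.48 (adjusted p = 3.21e-05), and the Nr1d2 call was lost without mouse 7 (0.0555) or mouse 9 (0.0657). The genotype change differed among tissues for Tef (adjusted p = 0.00012) and Nr1d2 (0.046), 2 of 9, where 25.6% of all genes did. For Per1 it was not called (0.849), and with the mouse as a replicate block Per3 was called (0.0445 against 0.0984).

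TNF-deficient mice given LPS were also set against the PBS mice. Over 135 tests 22 were lower and 8 higher, where 6.13% and 6.71% of all tests were, and the groups did not overlap in 34, against 17.3% of all tests. This comparison shares its PBS mice with the first and its TNF-deficient mice with the second. Nr1d1 was lower in 9 tissues and below 0 in 15 of 15, with -2.17 in brown adipose tissue (adjusted p = 4.41e-05), -1.96 in lung (adjusted p = 1.2e-05), -1.89 in white adipose tissue (adjusted p = 0.000282) and -1.66 in small intestine (adjusted p = 4.52e-06). Nr1d2 was lower in 7, with -1.43 in kidney (adjusted p = 2.84e-06), -1.38 in brown adipose tissue (adjusted p = 0.00148), -1.15 in spleen and -1.07 in small intestine (adjusted p = 0.000328). In brown adipose tissue Nr1d2 was at 7.26, 7.43, 10.8 and 16.3 in these mice and at 32.4, 28.2, 23.3 and 26.7 in PBS mice, without overlap. The Nr1d2 calls in heart, lung, muscle and spleen were lost without 1 of several mice: in heart mice 1, 2, 3, 8, 9, 11 and 12 (0.0555 to 0.207) and 4 other settings (0.0565 to 0.0928), in lung mice 1, 2, 3 and 9 (0.0948 to 0.109), in muscle mice 2, 3 and 11 (0.0521 to 0.0814), and in spleen mice 3 and 4 (0.0612 to 0.087).

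**Figure D5:**
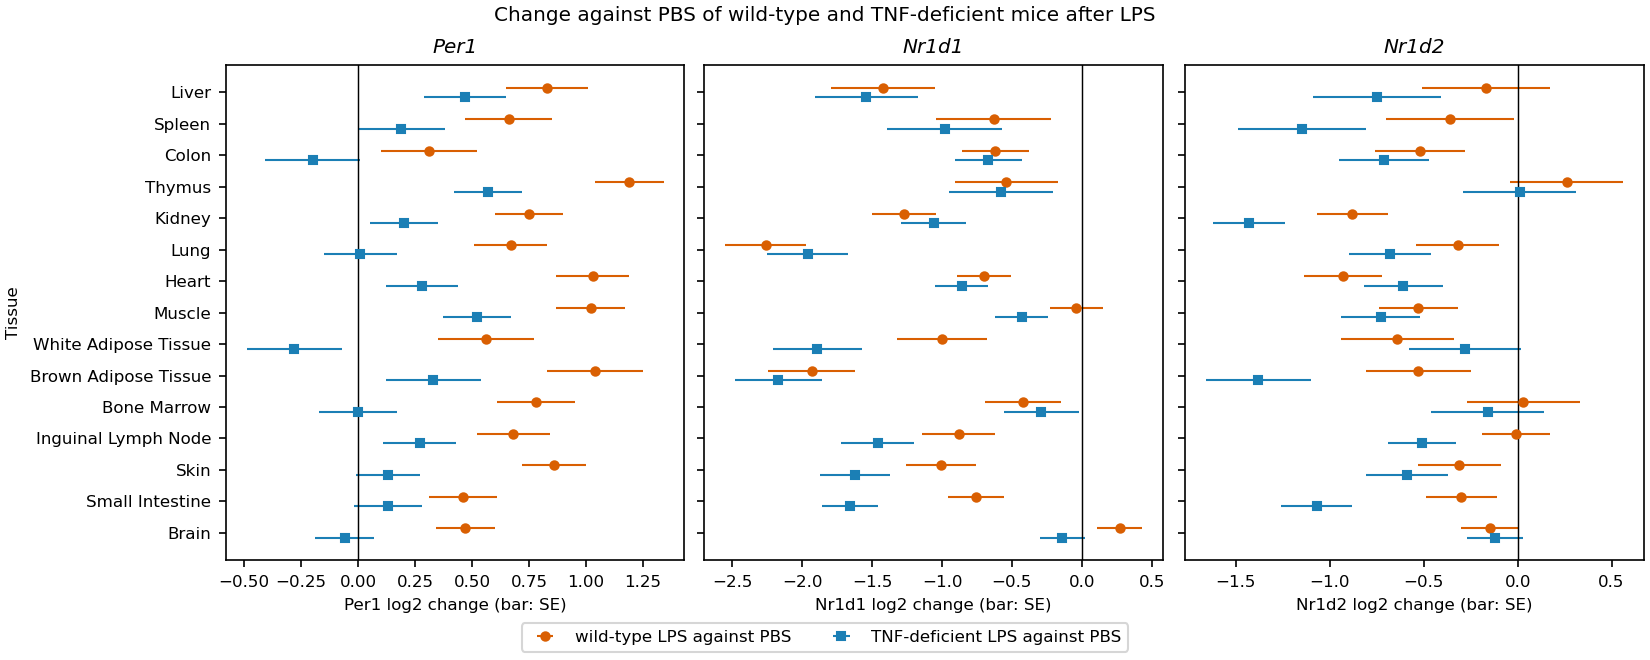
Log2 change against the PBS mice, with its SE as a bar, of Per1, Nr1d1 and Nr1d2 in 15 tissues for wild-type LPS mice (circles) and TNF-deficient LPS mice (squares); both share the 4 PBS mice. Per1 circles run from 0.31 to 1.19 and squares from -0.28 to 0.57, while Nr1d1 squares are below 0 in all 15 tissues.

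Tef was lower than in PBS mice in kidney (-1.69, adjusted p = 9.38e-09), spleen (-0.73, adjusted p = 0.0196) and small intestine (-0.67, adjusted p = 0.0462). Per3 was lower in kidney (-2.2, adjusted p = 0.000254), muscle (-1.49, adjusted p = 0.0205) and skin (-0.92, adjusted p = 0.0276). Of the genes that were higher, Arntl rose in muscle to 42.6, 34, 32 and 43.7 (1.81, adjusted p = 2.24e-05) and in lung to 22.8, 26.5, 23.2 and 23.9 (0.85, adjusted p = 0.00529), so its values in both groups given LPS stood above those of every PBS mouse. Cry1 was higher in kidney (1.27, adjusted p = 0.00888), lung (1.15, adjusted p = 0.000619) and brown adipose tissue (1.21, adjusted p = 0.0132), Per1 in thymus (0.57, adjusted p = 0.00703) and muscle (0.52, adjusted p = 0.017), and Per2 in brown adipose tissue, at 34.8, 34, 30.1 and 24.4 against 14.4, 18.8, 15.9 and 9.82 (1.04, adjusted p = 0.00944). That was the single call of Per2 in any comparison, and its groups were apart. Calls lost without 1 mouse were Tef in spleen (mouse 1, 4 or 10, 0.0578 to 0.083) and small intestine (mouse 1, 2, 3, 5, 10, 11 or 12, 0.054 to 0.145, no filter 0.067, DESeq2 0.0603), Per3 in muscle (mouse 1, 3 or 9, 0.0769 to 0.121, no filter 0.0687) and skin (mouse 2, 3, 10, 11 or 12, 0.0566 to 0.108), Cry1 in brown adipose tissue (mouse 11, 0.0583), and Per1 in thymus (mouse 9, 0.0905) and muscle (mouse 2, 3, 10 or 11, 0.0576 to 0.0829).

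Over mouse means, 4 of 9 clock genes were lower than in PBS mice and 2 higher, where 14.4% and 15.1% of all genes were. Nr1d1 (-1.15, adjusted p = 1.12e-06), Nr1d2 (-0.68, adjusted p = 6.27e-06), Tef (-0.43, adjusted p = 3.19e-05) and Per3 (-0.7, adjusted p = 0.00111) were lower, and Cry1 (0.32, adjusted p = 0.00865) and Arntl (0.24, adjusted p = 0.0315) were higher. The 4 Nr1d1 means, 3.619, 4.114, 4 and 3.865, were below those of every PBS mouse. Per1 was at 0.17 (adjusted p = 0.134), which passed without mouse 7 at that size (adjusted p = 0.0352), a mouse that enters only through the shared estimate of the spread. The Arntl call was lost without mouse 1, 2, 3, 10 or 12 (0.0532 to 0.126). Among the 15 tissues the median Arntl change in this comparison was 0.02, with 1.81 in muscle.

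Other genes of the clock pathway came from a fixed list of 24, of which 22 were in the table. In 330 tests they were lower in 26 and higher in 54 after LPS, with a median of 0.08, where 10.4% and 9.47% of all tests were. They were lower in 24 and higher in 6 in TNF-deficient against LPS mice (2.32% and 3.24% of all tests), and lower in 13 and higher in 31 in TNF-deficient against PBS mice (6.13% and 6.71%). Nfil3, which represses D-box genes and so opposes Tef, rose after LPS in 14 of 15 tissues, by 1.81 in lung (adjusted p = 4.41e-07) and 1.8 in kidney (adjusted p = 2.62e-06), with -0.3 in brain (adjusted p = 0.682). Bhlhe40, a repressor that binds E-boxes, rose in 7 tissues and was lower in TNF-deficient than in LPS mice in 6. Csnk1d, a kinase that marks Per proteins for decay, rose in 6, while Gsk3b, a kinase that acts on several clock proteins, fell in 5 and rose in 1. Npas2, which can replace Clock, rose in 3 tissues and fell in 1, and the receptor gene Rora, whose protein activates Arntl, did the same.

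The genes whose pattern was most like that of a clock gene were read from Pearson's r over the 45 group means, each tissue centred on its own mean, among 13272 genes, and are a description only. For Per1 they were Plaur (0.9), Tiparp (0.88) and Rbm3 (0.88), and for Nr1d1 they were Mgl2 (0.86), Dynlt3 (0.84) and Aqp1 (0.82). For Nr1d2, Nr1d1 itself was among the first 3 (0.72), after Rnaset2b (0.75), and the only clock gene among the 3 of any member. Tef was most like Ankrd13c and Akr1a1 (0.79 each), Per3 like Tril (0.78), Clock like Naxd (0.72), Per2 like Bcan (0.68) and Cry1 like Grk2 (0.67). The group means share libraries and depth within a tissue.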

How the data were processed

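RNA was measured by 3′ tag sequencing in 15 tissues of 12 mice, 4 per group, and the groups follow the genotype and treatment labels. Replicates are separate mice. Per the submitters' processing notes the build was mm10 and FastQC, MultiQC and edgeR were used. The aligner, and whether molecular identifiers or strand entered the counting, are not given in the sources used here. The authors deposited signal values in tables named for CPM, whose sums per library ran from 703690 to 1603067, so they are treated as a scaled signal. Dividing by the smallest step of a library gave whole numbers for 100% of values in every library (tolerance 0.1), which recovered the authors' counts. Values were the same in the tissue tables and the joint table for 15 of 15 tissues. No 2 libraries of a group agreed within counting noise (lowest chi-squared per degree of freedom 1.18 over 270 pairs).

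A gene was tested in a tissue where 4 or more of its 12 libraries had a signal of 1 or more. Tests ran on log2(signal + 1) with limma 3.58.1 (trend, R 4.3.3), with all 3 groups in the fit, 9 residual degrees of freedom and an adjusted p threshold of 0.05 within tissue and comparison. Mouse means over 15 tissues, the moderated F among tissues and each tissue against the other 14 used 13501 genes (a signal of 1 or more in 60 of 180 libraries). These last 2 tests take 1 spread per gene over all tissues and take libraries as independent, although 15 came from each mouse. The mouse as a replicate block is the alternative, since same-numbered libraries come from the same animal. Deviations of libraries of 1 mouse correlated at a median of 0.011 (1260 pairs), and those of different mice of a group at -0.003 (3780 pairs). These medians are over pairs of libraries and do not show how far a single gene followed the mouse. Per1 was highest of the LPS mice in mouse 7 in 13 of 15 tissues, and Nr1d1 lowest of the PBS mice in mouse 4 in 10. Fold changes are on the log2(signal + 1) scale, which understates the change of low genes. Depth of 311128 to 2573806 counts sets the precision.

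Other alternatives were a pseudocount of 0.25, no filter, median-of-ratios scaling, only 2 groups in the fit, edgeR 4.0.16 quasi-likelihood and DESeq2 1.42.0 on the recovered counts, and leaving out each mouse. The median change of all genes stayed within 0.1 of 0 in each tissue under each scaling. The tests were checked on simulated data, in which tests within a tissue and of mouse means kept false calls near the threshold, while the F test and the test of 1 tissue against the others exceeded it. The simulated libraries were drawn independently, with the same spread for all genes and nothing shared by libraries of a mouse. They cannot show how the tests behave where libraries of a mouse vary together. Members, lists and tests were chosen with earlier results of these data known. Named by rule are the members, the 3 genes most like each in pattern, genes that overlap a member, and, of the other clock genes, the 4 called in the most tissues and those called in both directions, a subset of which is printed. Gene positions are from GENCODE M21 (GRCm38) and promoter sequences from RefSeq.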

Additional observations from a re-analysis of the deposited data

Results flagged for a closer look

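For 6 genes the size of the LPS change differed among the 15 tissues by limma's moderated F, with adjusted p-values of 5.8e-20 for Tef, 7.1e-07 for Arntl, 2.7e-05 for Nr1d1, 0.00027 for Cry1, 0.0013 for Per3 and 0.03 for Per2. These 6 of 9 compare with 65.5% of all genes. The difference between TNF-deficient and wild-type mice given LPS differed among tissues for Tef (0.00012) and Nr1d2 (0.046), 2 of 9, where 25.6% of all genes did.

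In 22 of 405 groups of 4 libraries (5.43%, where chance gives about 1 in 20) 1 library stood far from the other 3. Arntl was low in the muscle of LPS mouse 8 (36.3 against 53.2 to 54.6) and in the bone marrow of PBS mouse 4 (14.5), and high in the spleen of LPS mouse 7 (18.8). Nr1d1 was low in the lung of PBS mouse 4 (29.1 against 76.8 to 82.9) and in the kidney of LPS mouse 5 (8.67), and high in the spleen of TNF-deficient mouse 10 (10.6). Nr1d2 was low in the lung of PBS mouse 4 too (17 against 29.6 to 30.9) and in the lymph node of mouse 10 (10.7), and high in the colon of PBS mouse 3 (23.1) and in the colon (19.4) and skin (34.4) of LPS mouse 7. Per3 was low in the colon of PBS mouse 1 (10.2), the muscle of LPS mouse 5 (3.45) and the spleen of mouse 10 (1.18), and high in the colon of LPS mouse 8 (13.5). Cry1 was high in the brain of TNF-deficient mouse 11 (15.7), and low in the brown adipose tissue of PBS mouse 1 (7.21) and the small intestine of TNF-deficient mouse 12 (8.91). Clock was high in the colon of PBS mouse 1 (55.2) and the liver of LPS mouse 6 (31.8). Tef was low in the skin of TNF-deficient mouse 11 (29.3) and high in the small intestine of mouse 9 (22.4).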

How the results depend on the processing

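No clock gene result changed direction while called under any alternative run. Of the calls within tissues, 27 of 38 for LPS against PBS, 19 of 30 for TNF-deficient against PBS mice and 5 of 13 for TNF-deficient against wild-type mice given LPS were kept under every one. The last comparison was the least stable: its lower calls, 12, ranged from 6 to 16 with 1 mouse left out, the lowest without mouse 7. Over mouse means, leaving out 1 mouse gave 1 to 2 higher genes for LPS against PBS (2 with all mice), 1 to 3 lower (2) and 0 to 1 higher (0) for TNF-deficient against wild-type mice given LPS, and 1 to 3 higher (2) for TNF-deficient against PBS mice. Genes whose genotype difference varied among tissues, 2, were 1 with a pseudocount of 0.25 and 1 to 3 with 1 mouse left out. Calls of a tissue against the other 14, 11, were 7 to 13 with 1 mouse left out. With the mouse as a replicate block, 8 genes in place of 6 had an LPS change that differed among tissues, 3 in place of 2 a genotype difference that did, and 14 in place of 11 tissue calls were made. Within a tissue no paired analysis was possible because each mouse gave 1 library per tissue and belongs to 1 group. The cause of these differences was not tested. Low signals, among them those of Per3, Per2, Cry1, Arntl, Nr1d1 and Nr1d2, rest on few counts.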
